A study of Mus musculus with 12 samples.

Results

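The baseline difference between *Tem1*-deficient and wild-type scars was examined in scars that carried a traction device but were not stretched. TEM1 is the protein product of *Cd248*, and the count files list the gene under that symbol. The 6 libraries were chosen by their labels, 3 with genotype Tem1lacZ/lacZ and treatment Sham and 3 with genotype Tem1WT/WT and treatment Sham, out of 12 libraries in the series. The Tem1lacZ/lacZ allele is a germline knock-in that puts *lacZ* where the *Cd248* exon was, and the line had been bred to C57BL/6J mice for 10 generations. Whether the wild-type mice were littermates is not given in the sources used here. All mice were males of 8 to 12 weeks. A wound of 1.5 cm was cut in the back skin which received a plastic device 6 days after wounding. In the sham groups the device was left as placed, and in the traction groups, which hold the other 6 libraries, it was lengthened by 1 mm each day to a total of 8 mm. Each library came from a piece of the scar of 1 mouse. Such a piece holds dermis, epidermis, hair follicles, vessels and whatever fat and muscle were cut with it, so fewer cells of a type and less RNA per cell cannot be told apart.

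TEM1 is a transmembrane glycoprotein with a C-type lectin domain, related to CD93, CLEC14A and thrombomodulin. It is made by fibroblasts, pericytes and other mesenchymal cells, mostly where tissue is being built or repaired, and it binds matrix proteins. In a healing skin wound fibroblasts and myofibroblasts lay down collagen under the influence of TGF-β and PDGF, keratinocytes at the wound edge migrate over the bed, and new vessels grow in. Genes of these processes were therefore described as groups. Levels are given in CPM (counts relative to library totals scaled by TMM), and fold changes are Tem1lacZ/lacZ relative to Tem1WT/WT. The test was edgeR's quasi-likelihood test, with the spread estimated from all 12 libraries and Benjamini-Hochberg adjustment over all genes tested. Each p-value sets the genotype difference against the spread between mice within all 4 groups, the traction groups included.

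The sham libraries held 43235107, 64644293 and 59216104 counts in wild-type mice and 41714795, 41536788 and 48109020 in *Tem1*-deficient mice, and wild-type replicates 2 and 3 were the deepest. Of 35976 genes listed, 27414 had a count in a sham library and 18853 were tested. Markers of dermis were present throughout. The collagen gene *Col3a1* lay between 9666 and 24457 CPM in the 6 libraries and the proteoglycan gene *Dcn* between 2233 and 3661 CPM. Y-linked genes were expressed in each library, with *Kdm5d* between 38.2 and 45.4 CPM, and *Xist* was between 0.109 and 0.343 CPM. On principal components of the 500 most variable genes the genotypes overlapped on each of the first 3 taken singly, and combinations of components were not tested. The first component held 46.4% of the variance (difference of group means 9.07, two-sided exact permutation test, p = 0.6), the second 34.7% (p = 0.3, exact) and the third 10.1% (p = 0.2, exact), where 3 against 3 mice allow no p below 0.1, so no component could have passed 0.05. The genes with the largest weights on the first component included the muscle gene *Myh4*, the plasma cell gene *Jchain* and the fat droplet gene *Cidec*, and on the second *Cd248*, the pigment genes *Tyr* and *Pmel*, and the keratin gene *Krt6b*.

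*Cd248* gave the clearest difference. In the GENCODE vM21 annotation of GRCm38 it has 1 exon, on the plus strand of chr19:5068078-5070682, with its coding part at chr19:5068126-5070420. Its first 150 coding bases are shown because they begin the coding part that the *lacZ* allele lacks (capitals mark the start codon, chr19:5068126-5068275):
Cd248 coding start: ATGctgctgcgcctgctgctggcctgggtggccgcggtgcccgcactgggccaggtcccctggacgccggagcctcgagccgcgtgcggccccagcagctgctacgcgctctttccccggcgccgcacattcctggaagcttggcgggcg

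The count of *Cd248* was 5481, 9500 and 11767 in the wild-type sham libraries and 4, 8 and 4 in the *Tem1*-deficient ones. As CPM these were 119, 138 and 193 against 0.0952, 0.190 and 0.0807. The groups lay far apart, and the labels of all 6 libraries fit their *Cd248* level. The log2 fold change was −10.25 (SE 0.79, 95% interval −12.00 to −8.51, edgeR adjusted p = 0.00108). In the traction groups, whose mice are different ones, it was −10.65 (adjusted p = 0.000755). Genes of related lectin-domain proteins and of a shared ligand kept levels that overlapped between the genotypes. *Cd93*, an endothelial lectin receptor, was at 37.6, 71.5 and 93.4 CPM in wild-type and 69.7, 35.7 and 62.9 CPM in *Tem1*-deficient scars (log2 fold change −0.27, 95% interval −1.11 to 0.57). *Clec14a* had −0.11, with an interval from −1.06 to 0.84. *Thbd*, which encodes thrombomodulin, had −0.04, with an interval from −0.45 to 0.37. *Mmrn2*, which encodes the vessel matrix protein that binds CD93 and CLEC14A, had −0.47 (interval −1.03 to 0.08). For none of these 4 genes was a difference called, and the intervals of *Cd93*, *Clec14a* and *Mmrn2* reach past a 2-fold decrease.

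Genes beside *Cd248* on chromosome 19 were listed as well, since sequence beside a targeted allele is inherited with it. The strain of origin of that sequence was not tested. The nearest tested genes were *Rin1*, *Brms1* and *B4gat1* on one side and *Tmem151a*, *Yif1a* and *Cnih2* on the other. *Yif1a*, a gene of transport from the endoplasmic reticulum to the Golgi, was at 32.1, 30.3 and 36.7 CPM in wild-type and 42.9, 51.5 and 44.3 CPM in *Tem1*-deficient scars, without overlap (log2 fold change 0.49, unadjusted p = 0.0283, adjusted p = 0.409). *Tmem151a* stood lower in all 3 *Tem1*-deficient mice (0.651, 1.54 and 0.573 CPM against 0.286, 0.427 and 0.363 CPM, log2 fold change −1.36, adjusted p = 0.409), at a level near the limit of detection. *Rin1*, *Brms1*, *B4gat1* and *Cnih2* had log2 fold changes of 0.09, 0.22, −0.08 and −0.45. Of the 265 genes tested within 10 Mb of *Cd248*, 0 passed the adjusted threshold in edgeR. Of the same 265, 22 higher and 24 lower genes had an unadjusted p under 0.05. Both are larger shares than the 5.03% (higher) and 6.62% (lower) of all tested genes. The median log2 fold change of these neighbours was −0.03, and 17.0% were higher and 18.5% lower without overlap, against 13.0% and 13.8% of all tested genes. The smallest p-values within 10 Mb belonged to *Snhg1*, a host gene of small nucleolar RNAs (log2 fold change 0.89, adjusted p = 0.409), *Tle4*, a transcriptional corepressor (−0.57, 0.409), and *Tmem179b* (0.66, 0.409).

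The only other gene past the threshold was *Erdr1*. It was at 0.0868, 0.319 and 0.295 CPM in wild-type sham scars and at 5.50, 8.19 and 4.18 CPM in *Tem1*-deficient ones, from 4, 22 and 18 counts against 231, 345 and 207. Each *Tem1*-deficient library stood far above each wild-type library (log2 fold change 4.63, SE 0.52, adjusted p = 0.0211). The traction groups showed the same direction, with a log2 fold change of 6.09 (adjusted p = 0.00322). *Cd248* and *Erdr1* together were 0.0106% of the genes tested. RefSeq places *Erdr1* at chrX:170010526-170018797 (GRCm38) as a transcribed pseudogene, at the end of the X chromosome that holds the region shared with Y. Near-identical copies exist in that region, so how the reads of *Erdr1* were shared out is uncertain. Without single libraries the adjusted p of *Erdr1* ranged from 0.0263 to 0.214, and it was over 0.05 without any of wild-type sham replicates 1, 2 and 3, *Tem1*-deficient sham replicates 1 and 2, wild-type traction replicate 2 and *Tem1*-deficient traction replicate 1, while the log2 fold change stayed between 4.27 and 4.93.

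The tested genes next to *Erdr1* were then listed, after its value had been seen. *G530011O06Rik*, a long non-coding RNA at chrX:169975043-169978917, had 0, 0 and 3 counts in wild-type sham libraries and 3, 67 and 36 in *Tem1*-deficient ones, and 0, 0 and 0 against 55, 79 and 34 counts in the traction groups. *Tem1*-deficient sham replicate 1 and wild-type sham replicate 3 had the same count of 3, and only the scaling to CPM set them apart. Its adjusted p in edgeR was 0.409 in sham and 0.0845 in traction scars, and DESeq2 on the 12 libraries gave 0.0258 in sham scars. *Mid1*, a ubiquitin ligase gene that overlaps *G530011O06Rik* at chrX:169685199-169990798, went the other way. It was at 5.36, 5.54 and 6.65 CPM in wild-type and 2.67, 2.99 and 4.02 CPM in *Tem1*-deficient sham scars (log2 fold change −0.86, SE 0.29, adjusted p = 0.409), and its traction estimate was −0.86 (adjusted p = 0.116). As CPM, *Erdr1* and *Mid1* did not overlap between the genotypes in sham or in traction scars. The next gene inwards, *Hccs*, which encodes a haem ligase of mitochondria, had a log2 fold change of −0.07 with 16.5, 17.3 and 17.6 against 15.2, 16.8 and 17.1 CPM. Strand handling in the authors' counting is not given in the sources used here, so reads of *Mid1* and *G530011O06Rik* may not be fully separated.

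**Figure D1:**
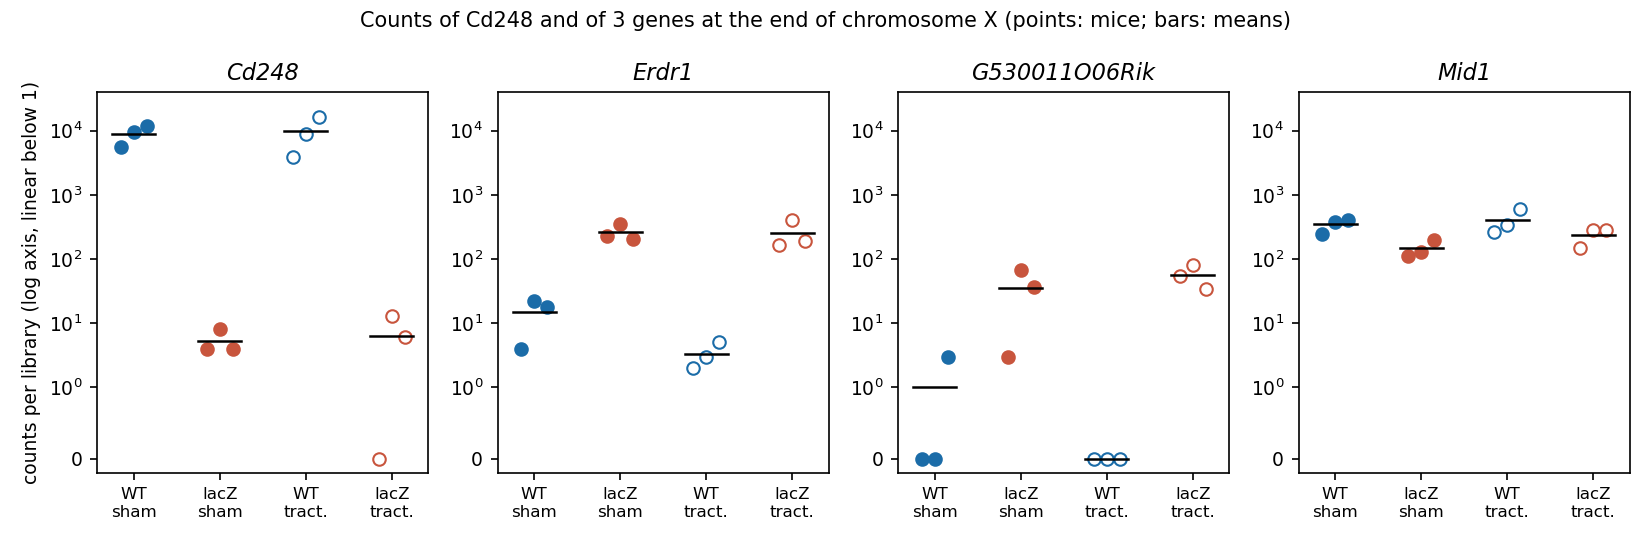
Counts per library (log axis, linear below 1) of *Cd248*, *Erdr1*, *G530011O06Rik* and *Mid1* in wild-type (blue) and *Tem1*-deficient (red) mice, with filled points for sham and open points for traction scars, 3 mice per group, and bars for group means. *Cd248* had 5481 to 11767 counts in wild-type and 4 to 8 in *Tem1*-deficient sham scars, while *Erdr1* stood higher in all *Tem1*-deficient mice, *G530011O06Rik* had 3 counts in a sham library of each genotype and the counts of *Mid1* overlapped in traction scars.

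No other gene passed the threshold. The third smallest adjusted p was 0.409, and the median size of the log2 fold change over all tested genes was 0.289. The spread between mice of a group was wide (biological coefficient of variation 34.2%). For 9555 genes (50.7%) the 95% interval lay within a 2-fold change in either direction, and for the rest it reached past a 2-fold change. At an unadjusted p under 0.05 there were 949 higher genes (5.03%) and 1249 lower genes (6.62%). The groups did not overlap for 2449 higher (13.0%) and 2603 lower (13.8%) genes, and list counts are to be read against these shares. DESeq2's Wald test called 27 genes on the same 12 libraries, *Cd248* and *Erdr1* among them, and 1150 genes when given only the 6 sham libraries, where edgeR called 1. Counts were also simulated with edgeR's fitted spread, with 100 genes changed 2-fold and 100 changed 4-fold in *Tem1*-deficient sham libraries. On 12 simulated libraries edgeR called 27 of the first and 74 of the second. DESeq2 made 50 false calls on 12 simulated libraries and 80 on 6, against 6 and 10 in edgeR.

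**Figure D2:**
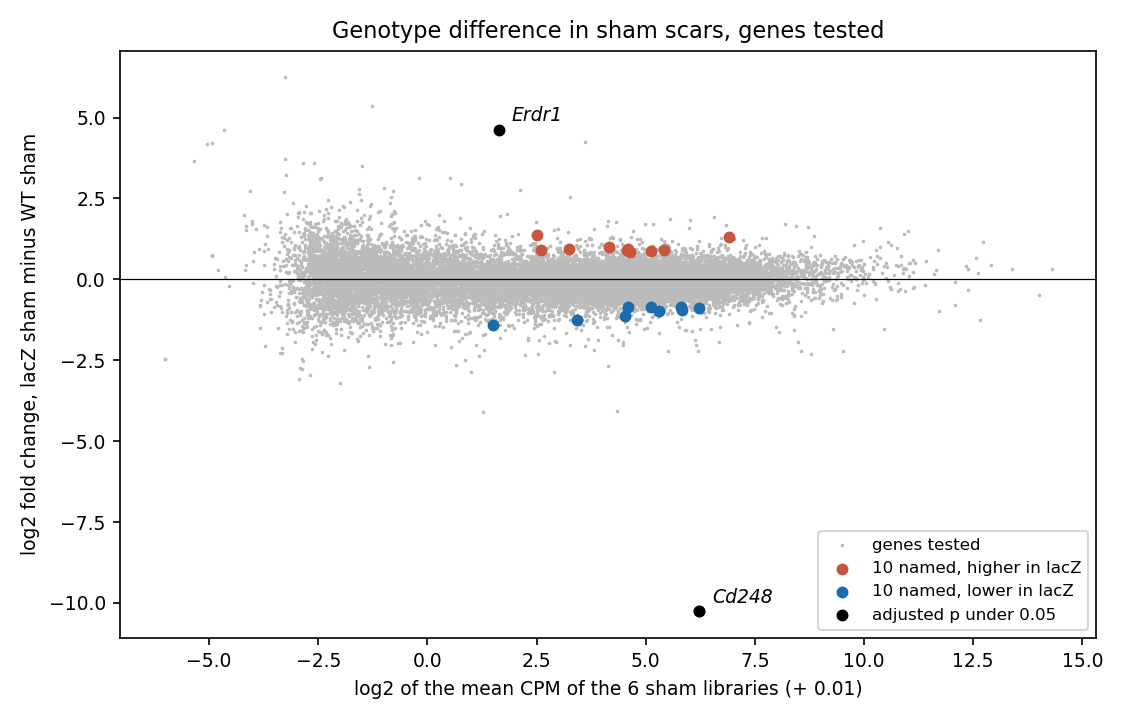
Log2 fold change (Tem1lacZ/lacZ sham relative to Tem1WT/WT sham) against the log2 mean CPM of the 6 sham libraries for the 18853 genes tested, with the named genes in colour. *Cd248* at −10.25 and *Erdr1* at 4.63 are the 2 genes with an adjusted p under 0.05. The other named genes were chosen by small p and not by the size of their fold change.

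The estimates were ordered by transcript length. A length was taken from the longest GENCODE vM21 transcript for 17382 genes (92.2% of those tested). Across these genes the Spearman correlation of length with the sham log2 fold change was −0.41, and with the traction log2 fold change −0.21. The GC content of the transcript had correlations of −0.17 and −0.23 with the same fold changes. These are descriptions, since genes of a library share its RNA and its preparation. Genes were parted into 5 classes of like size by transcript length. In the class with the shortest transcripts 23.2% were higher and 2.53% lower in *Tem1*-deficient scars without overlap. In the class with the longest transcripts 3.65% were higher and 34.0% lower. The median log2 fold change was 0.26 in the shortest and −0.28 in the longest class, and in the traction groups 0.24 and −0.16. Library by library, the shortest class stood at −0.10, −0.20 and −0.08 (median log2 CPM relative to the gene's mean) in wild-type and at 0.03, 0.24 and 0.15 in *Tem1*-deficient scars. All 3 wild-type libraries leaned to long transcripts and all 3 *Tem1*-deficient libraries to short ones, replicate 1 the least. What underlies this relation was not tested. The medians of some lists, among them all whose sign it turned, are therefore also given after each library's trend over length and GC content was removed, a correction chosen after the data had been seen. After it the correlation with length was −0.04 and 1 gene, *Cd248*, had an adjusted p under 0.05. The list medians also depended on single libraries. When 1 library was left out, 17 of the 45 medians of the listed groups turned sign and 22 kept their sign but moved by more than 1.5-fold. The 6 that did neither were those of the basement membrane, TGF-β ligand and receptor, lymphatic, haemoglobin, sex-linked and cluster 1 lists.

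**Figure D3:**
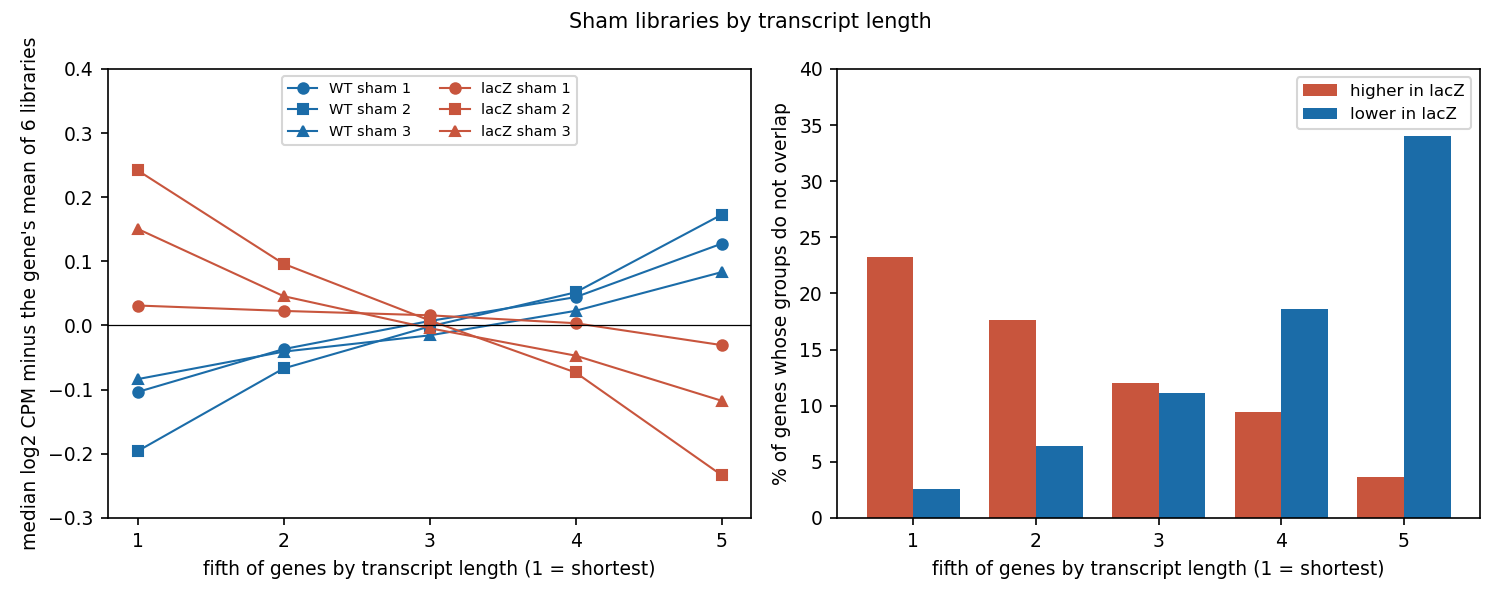
Left, median log2 CPM of each sham library relative to the gene's mean of 6 libraries, for 5 classes of genes by transcript length (1 = shortest). Right, percentage of genes in each class whose groups did not overlap: 23.2% were higher in *Tem1*-deficient scars in the shortest class and 34.0% lower in the longest.

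Among well-expressed genes without overlap, those with the smallest p in each direction were named, 10 higher and 10 lower, with an edgeR adjusted p of 0.409 for all of them but *Cd248*. DESeq2 gave 16 of the other 19 an adjusted p under 0.05 on the 12 libraries, all but *Snhg5* (0.0509), *Ntn1* (0.0509) and *2010107E04Rik* (0.0546), and all 19 on the 6 sham libraries. On the simulated counts DESeq2 made more false calls than edgeR. The named genes were chosen on the sham libraries, so their sham values are a description. *Cdk2ap1*, a regulator of CDK2 and of a chromatin remodelling complex, was at 29.6, 30.7 and 28.9 CPM in wild-type and 50.6, 61.3 and 56.5 CPM in *Tem1*-deficient sham scars (log2 fold change 0.92, SE 0.17). *Ublcp1*, a phosphatase acting on the proteasome, was at 24.1, 22.9 and 26.4 against 38.7, 49.1 and 47.8 CPM (0.89). *Cstb*, the cysteine protease inhibitor cystatin B, was at 68.1, 59.5 and 79.7 against 181, 186 and 146 CPM (1.31). In each of these 3 genes the gap between the groups was wider than the spread inside the wild-type group. *Dynlt1b*, a dynein light chain, was at 3.30, 2.47 and 3.73 against 10.9, 6.38 and 7.21 CPM (1.36). *Mrpl33* and *Mrps18c*, proteins of the mitochondrial ribosome, had log2 fold changes of 0.92 and 0.94, and *Snrpe*, a core protein of spliceosomal particles, had 1.00. *Gt(ROSA)26Sor*, the RNA of the locus widely used for transgenes, *Snhg5*, a host of small nucleolar RNAs, and *2010107E04Rik* had 0.89, 0.85 and 0.92. The median transcript length of these 10 genes was 1000.5 bases, and with the trend over length and GC content removed their log2 fold changes lay between 0.49 (*Gt(ROSA)26Sor*) and 1.08 (*Dynlt1b*).

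The lower genes had a median transcript length of 7086.5 bases, *Cd248* included. *Per1*, a repressor of the circadian clock that glucocorticoids also induce, was nearly constant in wild-type sham scars, at 97.1, 98.0 and 95.2 CPM. In *Tem1*-deficient sham scars it was at 52.7, 46.4 and 57.1 CPM (log2 fold change −0.89, SE 0.18). *Ntn1*, the guidance cue netrin-1, was at 49.9, 53.8 and 52.8 against 25.8, 26.9 and 27 CPM (−0.97). *Mitf*, a transcription factor of melanocytes, mast cells and osteoclasts, was at 74.7, 76.6 and 66.0 against 36, 43.7 and 39.6 CPM (−0.87). All 3 wild-type mice stood above all 3 *Tem1*-deficient mice by more than the spread inside either group. *Rest*, a repressor of neuronal genes, was at 28.7, 33.4 and 30.8 against 17.6, 15.9 and 17.8 CPM (−0.86), and *Tnrc6b*, a partner of Argonaute in silencing by microRNAs, at 72.6, 78.2 and 73.9 against 41.7, 35.4 and 40.5 CPM (−0.93). *Pcnt*, a scaffold of the centrosome, had −0.87, *Srgap3*, a GTPase-activating protein in migrating cells, −1.25, *Nav2*, a neuron navigator, −1.13, and *Myo16*, an unconventional myosin, −1.41. With the trend over length and GC content removed, *Mitf* kept −0.79, while *Per1* moved to −0.51, *Ntn1* to −0.54, *Srgap3* to −0.82, *Pcnt* to −0.33, *Tnrc6b* to −0.42 and *Nav2* to −0.50.

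In the traction groups, whose 6 mice gave no fold change to the choice of these genes but entered the filter and the estimate of the spread, 19 of the 20 had the sign of the sham estimate, as did 64.8% of all tested genes, and 13 also had an unadjusted p under 0.05 there, where 20.0% of all tested genes had both. The shared estimate of the spread makes this no independent repeat. Transcript length and GC content were related to both contrasts, and their part in it was not tested. In traction scars 20 genes (0.106%) passed the adjusted threshold. Among the 10 higher and 10 lower genes chosen above, *Cd248*, *Per1* and *Rest* did so. *Erdr1* and *Errfi1*, which were not among those chosen genes, also passed it. *Per1* had a log2 fold change of −2.02 in traction scars (adjusted p = 0.00257), against −0.89 in sham scars. The difference between these effects had an unadjusted p of 0.000939 and an adjusted p of 0.548 in the interaction test. *Rest* had −1.19 in traction scars (adjusted p = 0.0392) and *Srgap3* −1.04 (0.0889). *Nav2* was the gene whose sign differed, at 0.18. Of all 18853 genes 0 passed the interaction test in edgeR, with 1680 at an unadjusted p under 0.05, and no other tool was run for it.

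**Figure D4:**
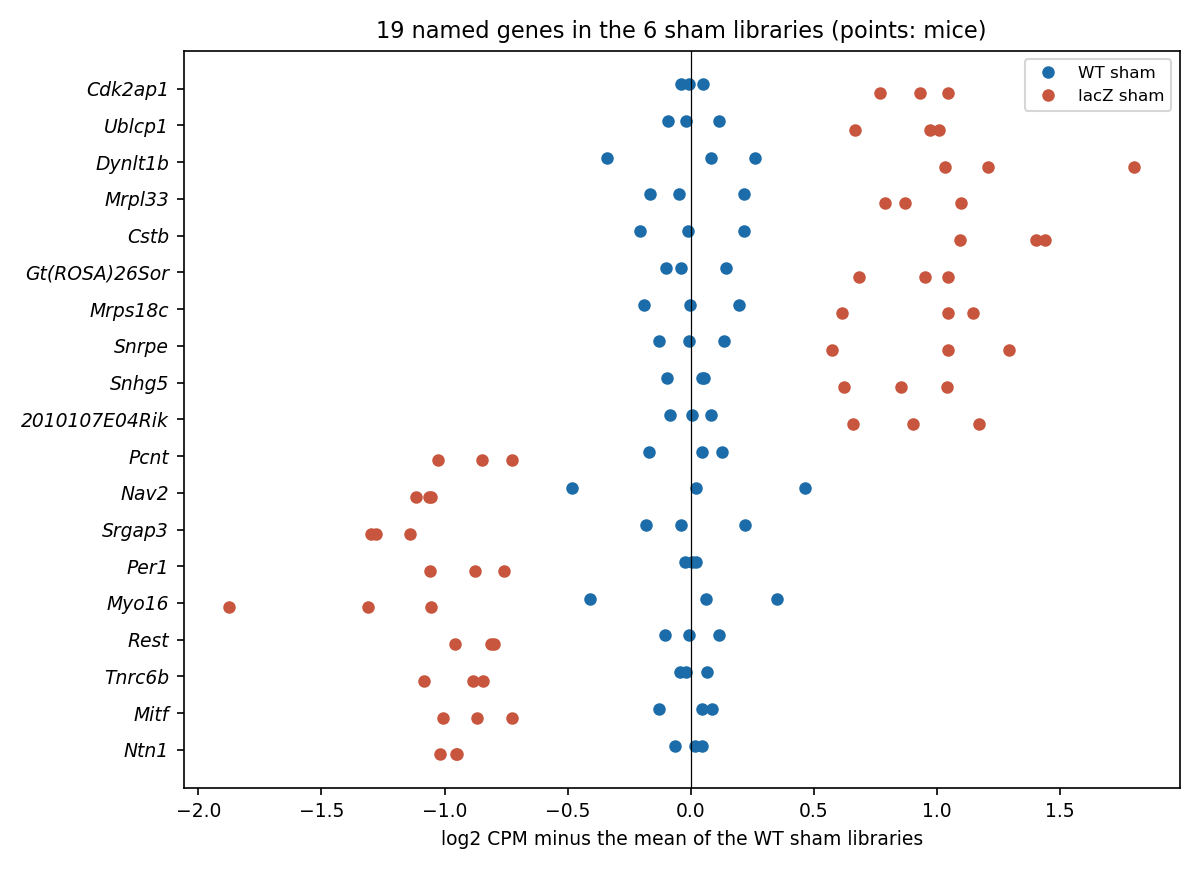
Log2 CPM of 19 named genes relative to the mean of the wild-type sham libraries, 1 point per mouse. The 10 upper genes stood higher and the 9 lower genes lower in all 3 *Tem1*-deficient mice, which was a condition of their choice.

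Families of housekeeping genes had estimates of like sign, and these families were picked after the values had been seen. Of 84 cytosolic ribosomal protein genes 82 had a higher estimate in *Tem1*-deficient sham scars and 43 were higher without overlap (median log2 fold change 0.54, median transcript 1054 bases). Their mean log2 level relative to the 6-library mean was −0.37, −0.30 and −0.11 in wild-type and −0.10, 0.60 and 0.28 in *Tem1*-deficient scars. The same held for 75 of 77 mitochondrial ribosomal proteins (median 0.33), 70 of 78 nuclear subunits of the respiratory chain (0.43, 55 without overlap), 35 of 38 proteasome subunits (0.36) and 18 of 22 proteins of spliceosomal particles (0.35). Of genes encoded in mitochondrial DNA 12 of 13 had higher estimates, 10 of them without overlap (median 0.43). In the opposite direction, all 25 chromatin regulators of the Kmt2, Chd, Arid and Kat6 families had lower estimates, 22 without overlap (median −0.49, median transcript 8469 bases). Their scores were 0.31, 0.34 and 0.15 in wild-type and −0.10, −0.43 and −0.27 in *Tem1*-deficient scars. No member of these families passed the adjusted threshold in edgeR, while DESeq2 on the 12 libraries called *Mrpl33*, *Mrps18c* and *Snrpe*, and the part of transcript length in these shifts was not tested for each family.

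Collagen genes, whose products make up most of a scar, mostly had lower estimates in *Tem1*-deficient sham scars, the larger part of them with overlap between the groups. Of 10 fibrillar collagen genes 9 had a negative estimate, and the median was −0.59. Lower without overlap were 2 (20%, against 13.8% of all tested genes). *Col1a1*, the main chain of type I collagen, was at 3475, 4635 and 5368 CPM in wild-type and 3049, 1536 and 2202 CPM in *Tem1*-deficient scars, without overlap (log2 fold change −0.99, 95% interval −2.06 to 0.08, adjusted p = 0.445). *Col3a1* was at 13626, 19592 and 24457 against 17251, 9666 and 14191 CPM (−0.49, interval −1.39 to 0.42). The lowest *Col3a1* libraries were thus a *Tem1*-deficient and a wild-type one, and *Tem1*-deficient replicate 1 stood above wild-type replicate 1. *Col11a1* had −1.21 (adjusted p = 0.434), with wild-type replicate 2 alone at 79.4 CPM and the other 5 libraries between 11.5 and 27.5 CPM. Among 14 other dermal collagens 12 were lower (median −0.52), with *Col6a1* at −0.55, *Col15a1* at −0.91 (unadjusted p = 0.0310) and *Col16a1* at −0.73 (0.0423). Fibrillar collagens have long transcripts (median 6372 bases), and without the trend over length and GC content their median was −0.20 and that of the other collagens −0.14.

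Basement membrane genes had 16 of 18 negative estimates (median −0.54, median transcript 6575.5 bases, −0.16 without the length and GC trend). Without overlap 5 were lower (27.8%, against 13.8% of all tested genes) and 1 was higher. *Nid1*, which links laminin to type IV collagen, had −0.38. *Col4a4* had −1.26 and *Lama5*, a laminin chain, −0.63, at unadjusted p-values of 0.0210 and 0.0190. *Lama5* turned to 0.10 when the length and GC trend was removed. Of 20 enzymes that modify and crosslink collagen 15 were lower (median −0.17, 0.0089 without the length and GC trend and 0.0065 without wild-type replicate 3). *Adamts2*, the protease that trims procollagen, was at 264, 198 and 212 CPM in wild-type and 143, 88.5 and 119 CPM in *Tem1*-deficient scars, without overlap (−0.94, unadjusted p = 0.0195, adjusted p = 0.409). *Plod1*, a lysyl hydroxylase, had −0.50. For the matricellular and elastic fibre genes the median of 23 tested of 25 listed was −0.17, which turned to 0.0081 without the length and GC trend and to 0.066 without wild-type replicate 3. *Fbln1*, an elastic fibre protein, was lower without overlap at 98.2, 67.1 and 81.1 against 59.9, 44.0 and 47.2 CPM (−0.70, unadjusted p = 0.00427, adjusted p = 0.409), and its traction estimate was also negative (adjusted p = 0.0829). *Mfap5*, a microfibril protein, had 0.89 and *Postn*, periostin, 0.67, with overlapping groups. Small leucine-rich proteoglycans had a median of 0.21 over 10 genes (0.13 without the length and GC trend and 0.0037 without *Tem1*-deficient replicate 1), *Dcn* at 0.15 (interval −0.34 to 0.64) and *Prelp* at −0.70. Matrix proteases and their inhibitors had −0.17 over 22 genes (−0.073 without the length and GC trend and 0.012 without wild-type replicate 3), and *Mmp14*, the membrane-bound collagenase, was at 391, 462 and 543 against 357, 222 and 302 CPM, without overlap (−0.66, unadjusted p = 0.0247). *Mmp2*, the gelatinase that MMP14 activates, had −0.31 with overlap.

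Of 16 genes that make, hold or receive TGF-β, 10 were lower without overlap and 1, the integrin gene *Itgb8*, higher without overlap. The 10 were the ligand genes *Tgfb1* and *Tgfb2*, the latent binding protein genes *Ltbp1*, *Ltbp3* and *Ltbp4*, the receptor genes *Tgfbr2*, *Tgfbr3*, *Acvrl1* and *Eng*, and the integrin gene *Itgav*. *Tgfbr2*, the type II receptor, had a log2 fold change of −0.45 and was at 385, 336 and 406 CPM in wild-type and 307, 201 and 319 CPM in *Tem1*-deficient scars (95% interval −1.17 to 0.28, adjusted p = 0.590). *Itgav*, the alpha chain of integrins that release latent TGF-β, was at 108, 108 and 119 against 89.4, 59.3 and 81.8 CPM (−0.54, SE 0.19, adjusted p = 0.409). *Ltbp1*, which stores TGF-β in the matrix, was at 115, 78.3 and 65.6 against 55.7, 38.3 and 52.9 CPM (−0.82, SE 0.33, adjusted p = 0.409). The list's median was −0.43 and its scores by library were 0.21, 0.21 and 0.18 in wild-type and 0.04, −0.47 and −0.18 in *Tem1*-deficient scars, without overlap. Its median transcript length was 5557.5 bases. In the class with the longest transcripts, from 5011 bases, 34.0% of genes were lower without overlap, against 13.8% of all tested genes. With the length and GC trend removed the list's median was −0.14. None of its 16 genes passed the adjusted threshold in edgeR, and 4 had an unadjusted p under 0.05. Downstream, Smads and feedback genes had 15 of 19 negative estimates and a median of −0.14 (0.02 without the length and GC trend). The inhibitory *Smad6* (−0.73) and *Smad7* (−0.63) were lower without overlap at unadjusted p-values of 0.0262 and 0.0375.

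Mesenchymal genes other than matrix were mixed. Of 13 contractile genes of myofibroblasts and smooth muscle 7 were lower and 6 higher (median −0.11, −0.33 without wild-type replicate 3). Without overlap 3 were lower (23.1%, against 13.8% of all tested genes) and 0 higher. The list's scores were 0.33, 0.06 and 0.01 in wild-type and −0.22, −0.17 and −0.005 in *Tem1*-deficient scars, without overlap. *Myh11*, the smooth muscle myosin, was at 146, 89.3 and 108 CPM in wild-type and 65.5, 44.1 and 64.0 CPM in *Tem1*-deficient scars, without overlap (−0.98, unadjusted p = 0.0127, adjusted p = 0.409). *Synpo2*, an actin-binding protein of smooth and striated muscle, had −1.33, with wild-type replicate 1 at 99.6 CPM and the other 5 libraries between 13.3 and 28.9 CPM. In the PDGF pathway 6 genes had a median of −0.05 (0.048 without wild-type replicate 3). *Pdgfrb*, the receptor of pericytes and activated fibroblasts, was at 60.1, 62.0 and 77.1 against 54.0, 38.3 and 40.7 CPM (−0.58, unadjusted p = 0.0595), and *Pdgfra*, the fibroblast receptor, had −0.32 with overlap. Fibroblast markers had 12 of 19 positive estimates (median 0.13), with scores of −0.31, −0.13 and 0.37 in wild-type and 0.19, −0.38 and 0.26 in *Tem1*-deficient scars, so the groups overlapped. *Ly6a*, which marks stem-like fibroblasts and other cells, had 0.65, and *En1*, which marks the scar-forming fibroblast lineage of the back skin, was at 6.43, 7.94 and 8.75 against 4.19, 2.92 and 5.07 CPM, without overlap (−0.92, unadjusted p = 0.0477) and had −1.37 in traction scars. Pericyte markers had a median of −0.37 over 11 genes (−0.14 without the length and GC trend).

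Blood endothelial markers had 12 of 18 negative estimates with a median of −0.15 (−0.049 without the length and GC trend and 0.026 without *Tem1*-deficient replicate 2). *Vwf*, the clotting factor stored in endothelium, was at 44.9, 48.2 and 53.8 CPM in wild-type and 35.6, 15.4 and 24.5 CPM in *Tem1*-deficient scars (−0.96, unadjusted p = 0.0249), and *Cldn5*, a tight junction protein with a transcript of 1416 bases, at 13.2, 12.5 and 13.8 against 11.1, 8.83 and 9.20 CPM (−0.44, 0.0271). Both were lower without overlap. Of the 6 lymphatic endothelial markers tested of 7 listed, *Reln* had −1.29, *Flt4*, the receptor of VEGF-C, −0.90 and *Prox1*, the master regulator of lymphatic identity, −0.68. These 3 were lower without overlap at unadjusted p-values of 0.0111, 0.0201 and 0.0221. *Prox1* was at 8.12, 9.94 and 6.88 against 5.21, 4.60 and 5.71 CPM. The other lymphatic genes overlapped between the groups, with *Mmrn1* at −0.50, *Lyve1* at 0.10 and *Pdpn*, which keratinocytes and fibroblasts also express, at 0.40. The lymphatic median was −0.59 in sham scars, −0.43 with the length and GC trend removed and 0.18 in traction scars.

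Epidermal genes of the wound edge were the group with the highest median. Of 16 genes tested of 17 listed, 15 had a positive estimate and 8 were higher without overlap (median 1.10, 0.85 with the length and GC trend removed). These were *Sprr2a1*, *Sprr2h*, *Krt6a*, *Krt16*, *Krt17*, *Krtdap*, *Stfa1* and *Lcn2*. *Krt17*, a keratin of activated keratinocytes, was at 2493, 1986 and 2432 CPM in wild-type and 5184, 4577 and 3095 CPM in *Tem1*-deficient scars (log2 fold change 0.90, 95% interval −0.20 to 1.99, adjusted p = 0.485). *Sprr2a1*, a cornified envelope precursor, was at 83.3, 130 and 407 against 748, 673 and 492 CPM (1.62, unadjusted p = 0.0142, adjusted p = 0.409). *Stfa3*, a cystatin A-like protease inhibitor, was at 29.9, 110 and 214 against 315, 333 and 212 CPM (1.28), with *Tem1*-deficient replicate 3 just below wild-type replicate 3. The scores of the list were −1.42, −0.79 and 0.28 in wild-type and 0.64, 0.76 and 0.52 in *Tem1*-deficient scars, so wild-type replicates 1 and 2 were low and replicate 3 came near the other group. Leaving out single libraries moved the median between 0.87 and 2.03. In the traction groups the median was −0.09. Genes of the resting epidermis had a median of 0.07 over 19 genes, 9 of them lower (0.23 without the length and GC trend and −0.062 without *Tem1*-deficient replicate 2). *Krt14*, the basal keratin, was at 3051, 3123 and 6494 against 6666, 9597 and 11656 CPM (1.14, adjusted p = 0.513), and *Ivl*, involucrin, was higher without overlap at 0.74. *Krt10*, a keratin of the suprabasal layers, was lower without overlap at −0.36, and the basal keratin gene *Krt15* had −0.64. Sebaceous gland genes had 10 of 13 positive estimates (median 0.43), 4 without overlap, among them *Mgst1* (177, 148 and 171 against 413, 214 and 230 CPM, 0.79, unadjusted p = 0.0150) and *Awat1*, which makes wax esters of sebum (0.77, 0.0420). Neutrophil markers were mixed (median 0.03 over 13 genes tested of 16 listed, −0.12 without the length and GC trend and −0.10 without *Tem1*-deficient replicate 3), while the alarmin genes *S100a8* and *S100a9*, which activated keratinocytes also express, were higher without overlap. *S100a9* was at 8.51, 45.4 and 31.1 against 104, 89.8 and 109 CPM (1.83, interval −0.64 to 4.30, adjusted p = 0.524), and of the neutrophil genes too low to test *Ly6g* and *Ngp* had at most 4 counts and *Elane* at most 23 counts in a sham library.

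Hair follicle regulators were lower in most estimates. Of 25 factors and signals 23 were lower and 8 had an unadjusted p under 0.05, where 6.62% of all genes did so. Lower without overlap were 3 (12%, against 13.8% of all tested genes). The list's median was −0.67, and −0.45 with the length and GC trend removed. *Gata3*, a factor of the inner root sheath, was at 85.7, 87.8 and 49.7 CPM in wild-type and 52.4, 44.8 and 33.6 CPM in *Tem1*-deficient scars (−0.77, unadjusted p = 0.0192). *Dlx3*, a factor of the hair matrix, was at 50.7, 158 and 65.5 against 24.6, 58.8 and 43.0 CPM (−1.12), and *Msx1* at 2.45, 9.46 and 3.39 against 0.857, 2.49 and 1.86 CPM (−1.56). *Foxe1* and *Foxn1*, forkhead factors of the follicle, had −1.22 and −0.67. Wild-type replicate 2 was the highest library for *Dlx3*, *Msx1*, *Foxe1* and *Foxn1*, and *Tem1*-deficient replicate 1 the lowest. Without wild-type replicate 2 the list's median was −0.23. The keratins of hair shaft and inner root sheath had a median of −0.18 over 21 genes (−0.067 without the length and GC trend, 0.26 without *Tem1*-deficient replicate 1 and −0.82 without replicate 2), with *Tchh*, trichohyalin, at 7641, 13185 and 6371 against 1928, 5637 and 3905 CPM, without overlap (−1.25, unadjusted p = 0.0161), and *Krt82* at −1.21. In the traction groups the follicle regulators had the opposite median, 0.64, and only 4 of the 25 kept the sham sign. *Tchh* was 0.84 there. The number and growth phase of the hair follicles were not tested, and the keratin scores ran from −1.65 to 0.86 within the *Tem1*-deficient group.

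Melanocyte genes had 9 of 9 negative estimates (median −0.89, −0.93 with the length and GC trend removed). Lower without overlap were 2 (22.2%, against 13.8% of all tested genes), *Mitf* and *Sox10*. *Sox10*, a factor of the neural crest lineage, was at 4.86, 7.76 and 4.19 CPM in wild-type and 2.74, 3.30 and 2.70 CPM in *Tem1*-deficient scars (−0.94, unadjusted p = 0.0267). The pigment enzyme gene *Tyrp1* reached 257 CPM in wild-type replicate 2 and ran from 11.6 to 134 CPM within the *Tem1*-deficient group (−0.87). The list's scores were −0.14, 1.59 and 0.39 in wild-type and −2.44, 0.72 and −0.12 in *Tem1*-deficient scars, so wild-type replicate 2 and *Tem1*-deficient replicate 1 stood at the ends, and the traction median was 1.03. Without wild-type replicate 2 the list's median was −0.10, and without *Tem1*-deficient replicate 2 it was −1.68. *Mitf* had the same libraries at its ends, over a narrower range. Nerve and Schwann cell genes had a median of −0.37 over 13 genes (−0.21 without the length and GC trend), 4 lower without overlap. *Ngfr*, the low-affinity neurotrophin receptor, was at 7.88, 9.69 and 5.14 against 3.07, 4.77 and 3.94 CPM (−0.95, unadjusted p = 0.00725), *Prx*, a myelin protein, had −0.75 and *Pmp22* 0.29.

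**Figure D5:**
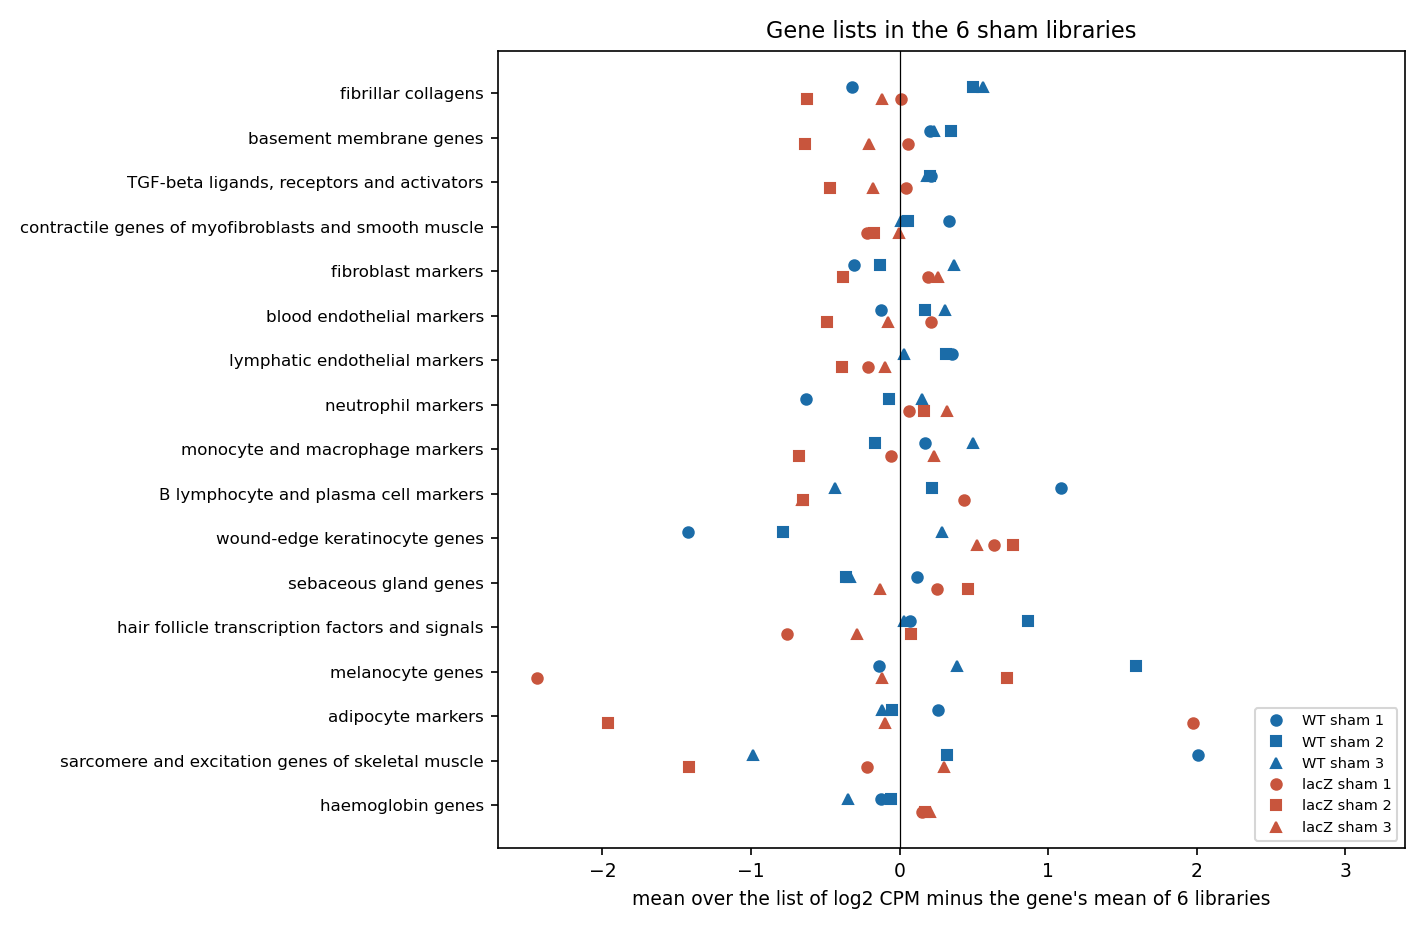
Mean log2 CPM of gene lists in each sham library, relative to each gene's mean of the 6 libraries (blue, wild-type; red, *Tem1*-deficient; the symbol gives the replicate). TGF-β, basement membrane and lymphatic genes were lower and wound-edge keratinocyte and haemoglobin genes higher in all 3 *Tem1*-deficient libraries, whereas fat, muscle and melanocyte genes spread widely inside the groups.

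All 17 adipocyte markers tested had a positive estimate (median 0.81), yet 0 were without overlap, and the difference of the mean list scores was −0.06, of the opposite sign. The scores were 0.26, −0.05 and −0.12 in wild-type and 1.97, −1.96 and −0.10 in *Tem1*-deficient scars. *Fabp4*, a fatty acid carrier of adipocytes, was at 260, 321 and 307 against 1204, 217 and 360 CPM, and *Pparg*, the regulator of adipocyte formation, at 20.4, 17.7 and 22.9 against 61.2, 20.0 and 25.4 CPM. *Car3*, the most abundant marker, ranged from 277 to 5567 CPM within the *Tem1*-deficient group. Replicate 1 was the high library each time, and without it the list's median was −0.81. For genes of the skeletal muscle sarcomere, all 25 estimates were negative (median −1.09) and 0 were without overlap. *Myh1*, a fast myosin, was at 4536, 1176 and 569 CPM in wild-type and 653, 299 and 1209 CPM in *Tem1*-deficient scars. *Neb*, nebulin, had −2.21 and *Myh7*, the slow myosin, −4.11, with wild-type replicate 1 at 1364 and 12.5 CPM. Without that library the muscle median was −0.05, and in traction scars it was 1.19. Regulators of muscle formation had 9 of 9 negative estimates (median −0.70), among them *Pax3* at −0.70. Their median was −0.16 without wild-type replicate 1 and −0.022 under limma-voom with sample weights.

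No immune gene of the lists passed the adjusted threshold in edgeR. Monocyte and macrophage markers had 17 of 19 negative estimates with a median of −0.22 (−0.014 without wild-type replicate 3). *Csf1r*, the receptor of the macrophage growth factor, was at 415, 267 and 395 CPM in wild-type and 302, 186 and 288 CPM in *Tem1*-deficient scars, with overlap (−0.47, 95% interval −1.12 to 0.17), and *Timd4*, a marker of resident macrophages, was lower without overlap at −1.68 (adjusted p = 0.477). T lymphocyte markers had a median of −0.04 over 12 genes tested of 16 listed, 5 of them higher (−0.14 without the length and GC trend and 0.097 without wild-type replicate 1). *Cd4*, which macrophages and helper T cells carry, was at 17.5, 16.1 and 11.3 against 6.85, 6.0 and 5.83 CPM, without overlap (−1.26, unadjusted p = 0.0160, adjusted p = 0.409), and it had −1.07 in traction scars. *Cd3e*, the T cell receptor component, overlapped at −1.26, whereas *Cd8b1* had 0.58. *Jchain*, made by plasma cells, had −4.07, with wild-type replicate 1 at 111 CPM and the other 5 libraries at most at 4.83 CPM, and without that library it had 0.10. The other B cell gene named, *Cd22*, had −1.08, and the median of 7 tested B lineage genes was −0.32 (0.0075 without wild-type replicate 1 and −1.26 without *Tem1*-deficient replicate 1). Mast cell markers had a median of −0.03 (−0.26 without the length and GC trend and 0.15 without wild-type replicate 3), with *Fcer1a*, a chain of the IgE receptor, at 0.39 and higher without overlap, the protease gene *Cpa3* at 0.0030 and *Kit*, the stem cell factor receptor that melanocytes share, at −0.62 without overlap (unadjusted p = 0.0185). For antigen presentation by MHC class II, 9 of 10 genes were lower (median −0.23, 0.025 without wild-type replicate 1), *Cd74* without overlap (834, 448 and 677 against 408, 384 and 446 CPM, −0.66, adjusted p = 0.529) and *Ciita*, their regulator, at −0.56. Cytokines and chemokines had a median of 0.22 over 33 genes tested of 35 listed, which was −0.08 without the length and GC trend. *Il33*, an alarmin of epithelium and fibroblasts, was at 72.7, 72.1 and 157 against 195, 183 and 257 CPM, without overlap (1.07, unadjusted p = 0.0542), whereas *Cxcl12* and *Cx3cl1* had −0.38 and −0.63. Interferon response genes had 19 of 24 negative estimates (median −0.18), with *Irf7* at −0.95 and *Ifi205* at 0.60. Lower without overlap were 5 (20.8%, against 13.8% of all tested genes).

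*Per1* belonged to a clock list in which 15 of 20 genes were lower (median −0.22, −0.074 without the length and GC trend and −0.0095 without wild-type replicate 1). The other named clock genes were *Hlf*, at −0.96 and lower without overlap, and *Rora*, at −0.23. *Per1* is also a glucocorticoid target, and of 11 such genes 5 were lower and 6 higher (median 0.11, −0.018 without *Tem1*-deficient replicate 2). *Errfi1*, a feedback inhibitor of EGF receptors that glucocorticoids induce, resembled *Per1*, at 132, 111 and 140 CPM in wild-type and 80.7, 91.6 and 101 CPM in *Tem1*-deficient sham scars, without overlap (−0.49, unadjusted p = 0.0110, adjusted p = 0.409) and with −1.55 in traction scars (adjusted p = 0.00540). *Sgk1*, another target, had 0.31. Immediate early genes had 18 of 22 negative estimates (median −0.14, −0.049 without the length and GC trend), with *Myc* lower without overlap at −0.51 (unadjusted p = 0.0304) and *Jund* at −0.33. The time of day at which scars were taken is not given in the sources used here.

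Metabolic and proliferation genes completed the survey. Of 20 glycolysis and hypoxia genes 15 were higher (median 0.30, 0.26 with the length and GC trend removed) and 5 without overlap, *Eno1*, *Pgk1*, *Tpi1*, *Ldha* and *Ankrd37*. *Eno1*, the glycolytic enolase, was at 607, 566 and 766 CPM in wild-type and 920, 987 and 1030.1 CPM in *Tem1*-deficient scars (0.60, 95% interval −0.18 to 1.38, adjusted p = 0.507), and *Ankrd37*, a target of hypoxia-inducible factor, had 0.46. The traction median of this list was −0.74. Genes of fatty acid oxidation and PPAR targets had a median of 0.09 over 24 genes (0.052 without the length and GC trend and −0.39 without *Tem1*-deficient replicate 1), while the mean list score differed by −0.07. *Cpt1a*, which brings fatty acids into mitochondria, was at 172, 176 and 152 against 135, 118 and 114 CPM, without overlap (−0.44, unadjusted p = 0.00926), and *Hadha* had 0.11. Haemoglobin genes differed among themselves. *Hba-a1* was at 45.8, 39.9 and 36.7 against 59.7, 57.8 and 60.5 CPM (0.54, unadjusted p = 0.00715, adjusted p = 0.409), *Hba-a2* had 0.82 and *Hbb-bs* 0.30, all 3 without overlap, while *Hbb-bt* had −0.18 and *Alas2*, the haem synthesis enzyme of red cells, 0.23. *Hba-a1* and *Hba-a2* are near-identical copies of each other, as are *Hbb-bs* and *Hbb-bt*, so the split within each pair is uncertain. In traction scars all 5 were lower, with *Hba-a1* at −0.64, and its interaction had an unadjusted p of 0.000334 and an adjusted p of 0.548. Cell division genes had 0 of 22 members without overlap and a median of −0.07 (−0.036 without the length and GC trend, 0.27 without wild-type replicate 2 and −0.29 without wild-type replicate 1), and for 14 of the 22 the 95% interval lay within a 2-fold change, with *Mcm2* at −0.37, *Plk1* at −0.50 and *Birc5* at 0.39.

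The study drew gene sets of profibrotic and inflammatory genes from these 12 libraries, by what it describes as interaction analyses. Genotype as well as traction entered that choice, so the behaviour of these sets is not independent evidence of a direction. In sham scars the 17 genes it lists for cluster 1 had a median of −0.34 (11 lower, 7 of them without overlap, −0.08 with the length and GC trend removed), and the 16 genes of cluster 2 a median of −0.14 (10 lower and 6 higher), with *Ccl2*, a chemokine for monocytes, at 5.38, 3.73 and 11.9 against 9.83, 10.4 and 15.2 CPM (0.75), *Hif1a*, the oxygen-regulated factor, at 0.27 and *Nos2*, the inducible nitric oxide synthase, at −0.71. The mean score of cluster 2 differed by 0.05 and its median without the length and GC trend was 0.16, both of the opposite sign. The 21 genes of clusters 3 and 4 had a median of −0.34, which was −0.021 without wild-type replicate 2 and −0.82 without *Tem1*-deficient replicate 2. The same medians in the traction groups were −0.89, −1.39 and 0.80. These differences between the conditions were not tested as lists.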

How the data were processed

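RNA from scars of 12 male mice, 3 for each genotype and treatment, was sequenced as stranded mRNA libraries with paired reads. Per the study's methods and processing notes, the authors trimmed reads with fastp 0.20.0, aligned them to GRCm38 with HISAT2 2.1.0 and deposited raw counts per gene from featureCounts 2.0.0. The annotation and strand setting are not given in the sources used here. Total counts per library were between 41536788 and 64644293.

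Genes were filtered on low counts (18853 kept), scaled by TMM and fitted in edgeR 4.0.16 (R 4.3.3) with a robust quasi-likelihood model of all 4 groups (8 residual degrees of freedom). The study used DESeq2. Benjamini-Hochberg adjustment covered all genes tested, with a threshold of 0.05. DESeq2 1.42.0 and limma 3.58.1 (voom) were alternatives, with other scalings and filters, single libraries left out, a replicate block and a correction for transcript length and GC content (mgcv 1.9.3). Scripts were tested on simulated data. Named genes were the 10 in each direction with the smallest p among those without overlap between the groups and a mean log2 CPM of at least 1, plus examples from the lists. A list score is the mean over its genes of log2 CPM (prior count 2) relative to the gene's mean. Members and lists were chosen with earlier results of these data known. Values of 1 further gene are not reported here.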

Additional observations from a re-analysis of the deposited data

How the results depend on the processing

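With 2 genes called in the main analysis, settings that lost *Erdr1* left 1, namely limma-voom, edgeR on the 6 sham libraries, an adjusted p under 0.01, and the genes with a transcript length with or without the correction (*Erdr1* has no length there). DESeq2 called 27 genes on 12 libraries and 1150 on the 6 sham libraries. With at least 10 counts required in each sham library edgeR called 0, with 2125 at an unadjusted p under 0.05, since that filter removes *Cd248* and *Erdr1*. Leaving out single libraries gave 1 to 2 calls. The replicate block kept the 2 calls. Deviations of same-numbered mice correlated at 0.21, 0.25 and 0.0308 and other pairs at −0.249 to 0.00659, each library best with its own number, which is a hint from the data only, as these are different mice.

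Some estimates changed sign, large ones included. Under the replicate block *Clec14a* had 0.011 and *Car3* −0.41. Under limma-voom *Thbd* had 0.0064 and *Car3* −0.14, and under upper-quartile scaling *Thbd* had 0.014. With the length and GC correction *Thbd* had 0.072, *Lama5* 0.10, *Rora* 0.10 and *Hbb-bs* −0.026. Without single libraries *Cd93* ranged from −0.56 to 0.037, *Clec14a* from −0.37 to 0.22, *Thbd* from −0.17 to 0.11, *Rin1* from −0.015 to 0.32, *Jchain* from −5.25 to 0.10, *Car3* from −1.10 to 1.23, *Fabp4* from −0.061 to 1.39, *Tyrp1* from −1.67 to 0.061 and *Hbb-bt* from −0.34 to 0.059. The cause was not tested. The p of the first principal component was 0.2 with all tested genes, 1 with a prior count of 2 and 0.7 with components of 12 libraries. Depth limits *Erdr1*, *G530011O06Rik* and *Tmem151a*, whose wild-type or *Tem1*-deficient libraries hold few counts.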
